A study of Mus musculus with 16 samples.

Results

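The type I interferon-stimulated genes are a set of antiviral genes that cells switch on after interferon alpha or beta binds its receptor. The set was a list of 41 named mouse genes classed as antiviral interferon-stimulated genes, with no threshold on a measured value. The list was proposed with earlier results of these data known, so shares of members beside shares of all genes are descriptive. All 41 were found by symbol among the 53764 genes of the deposited count table, and all 41 were among the 15841 genes with enough counts to be tested. Messenger RNA had been sequenced from whole left ventricle, the main pumping chamber of the heart, of male C57BL/6J mice that were 8 weeks old at the start and ate their diet for 4 months. There were 4 groups of 4 libraries, 1 library per animal. HFHS ertugliflozin mice ate a diet high in fat and sucrose with ertugliflozin mixed in at 0.5 mg per g, and HFHS untreated mice ate that diet without the drug. CD ertugliflozin mice ate a low-fat control diet with the drug at the same dose, and CD untreated mice, the group that the submitters name as the baseline, ate the control diet alone. Ertugliflozin inhibits SGLT2, a glucose transporter of the kidney. The labels name no transgene and no treatment with interferon or virus. The submitters picked the 4 animals of each group from a larger set as representative. The p-values rest on the spread between those animals, which can differ from the spread in the larger set.

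In the textbook pathway, interferon alpha or beta binds the receptor made of Ifnar1 and Ifnar2, and the kinases Jak1 and Tyk2 then phosphorylate STAT proteins. Stat2 and Irf9 are part of a complex that binds the interferon-stimulated response element in front of target genes. The target genes encode sensors of viral RNA, proteins that capture or cut viral RNA, and the complex's own subunits, so that the response feeds its own machinery. A low level of these transcripts is found in many uninfected tissues, the heart included.

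Library totals ran from 14637669 to 21452212 counts. Levels are given as CPM, the gene's counts scaled to a common library size by library total and normalization factor, and spreads are SD over the 4 libraries of a group. Ventricular muscle transcripts were abundant in every library, and the 8 listed markers summed to 73181 to 78734 CPM in HFHS ertugliflozin, 70305 to 81129 CPM in HFHS untreated, 77782 to 86943 CPM in CD ertugliflozin and 77204 to 86683 CPM in CD untreated. Some CD untreated libraries stood apart in atrial and valve transcripts. Atrial markers summed to 1064, 354 and 232 CPM in CD untreated replicates 1, 2 and 3 and to 134 CPM in replicate 4, and over the other 3 groups they lay between 95.7 and 204 CPM. Valve and cartilage markers summed to 216 and 187 CPM in CD untreated replicates 2 and 3, to 70.0 and 38.6 CPM in replicates 1 and 4, and to at most 69.0 CPM elsewhere. The labels name no batch.

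The members lay on 15 chromosomes, partly in clusters (GRCm38 coordinates, GENCODE M21). Ifit2, Ifit3, Ifit3b and Ifit1 followed each other on chromosome 19 with gaps of 7112, 19239 and 27470 bases. Oas2 and Oas3 on chromosome 5 were 3245 bases apart, Rsad2 and Cmpk2 on chromosome 12 were 12752 bases apart, and Ifi27 and Ifi27l2a on the same chromosome were 1928 bases apart. Dtx3l and Parp9 on chromosome 16 overlapped on opposite strands. RefSeq promoters (GRCm38.p6, 250 bases before and 50 after the start) were available for 29 members, and Zbp1 was not among them. The core of the interferon-stimulated response element was searched as GAAA, any NN and GAAA in a row, on both strands, with overlapping matches counted. It was present for 15 of these 29 members (51.7%), against 1079 of all 27025 genes in the promoter table (3.99%). A match is a string of letters and was not tested as a binding site.

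The 250 bases before the start are shown for 7 members, 5′ to 3′ on the gene's own strand, with matches to the motif in capitals (TTTC, NN and TTTC is the same motif on the other strand). Stat2, Bst2 and Ifi213 are shown because their transcripts passed the test described later and their promoters hold a match. Isg15, Ifit1, Ifit3 and Ifit3b are shown because they are classic targets whose promoters hold matches, and Ifit3 and Ifit3b are copies that can be compared. Ifit2 is a classic target too, and its 2 listed promoters held 0 matches.
Ifit1, chr19:34640639-34640888, plus strand: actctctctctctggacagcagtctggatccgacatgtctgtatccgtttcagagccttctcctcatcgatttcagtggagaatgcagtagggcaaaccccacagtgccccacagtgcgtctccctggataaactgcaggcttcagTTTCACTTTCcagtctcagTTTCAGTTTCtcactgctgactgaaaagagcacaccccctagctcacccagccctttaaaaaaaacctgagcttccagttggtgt
Ifit3, chr19:34583279-34583528, plus strand: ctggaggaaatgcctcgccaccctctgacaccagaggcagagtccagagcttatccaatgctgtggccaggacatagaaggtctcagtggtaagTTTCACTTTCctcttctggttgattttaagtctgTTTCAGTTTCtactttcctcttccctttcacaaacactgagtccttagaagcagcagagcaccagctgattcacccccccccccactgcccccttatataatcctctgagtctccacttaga
Ifit3b, chr19:34607707-34607956, plus strand: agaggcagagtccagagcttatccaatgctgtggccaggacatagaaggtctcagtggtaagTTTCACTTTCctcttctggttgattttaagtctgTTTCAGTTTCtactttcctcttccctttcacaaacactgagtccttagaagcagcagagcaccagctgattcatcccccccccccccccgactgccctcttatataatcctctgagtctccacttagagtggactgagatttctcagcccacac
Isg15, chr4:156200819-156201068, minus strand: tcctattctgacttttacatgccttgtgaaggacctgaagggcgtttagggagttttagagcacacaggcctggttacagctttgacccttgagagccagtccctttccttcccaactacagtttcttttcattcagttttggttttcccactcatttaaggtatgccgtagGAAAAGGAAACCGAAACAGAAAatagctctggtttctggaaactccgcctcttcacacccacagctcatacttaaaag
Bst2, chr8:71537473-71537722, minus strand: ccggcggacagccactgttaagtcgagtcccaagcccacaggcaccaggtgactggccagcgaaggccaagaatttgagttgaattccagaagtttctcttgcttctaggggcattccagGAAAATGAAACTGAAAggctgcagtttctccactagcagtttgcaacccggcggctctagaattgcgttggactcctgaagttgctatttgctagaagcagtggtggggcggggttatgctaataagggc
Stat2, chr10:128270248-128270497, plus strand: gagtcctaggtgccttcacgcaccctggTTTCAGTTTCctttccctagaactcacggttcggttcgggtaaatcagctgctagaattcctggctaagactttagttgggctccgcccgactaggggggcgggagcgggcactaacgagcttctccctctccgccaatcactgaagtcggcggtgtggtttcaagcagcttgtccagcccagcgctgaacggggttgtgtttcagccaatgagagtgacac
Ifi213, chr1:173599273-173599522, minus strand: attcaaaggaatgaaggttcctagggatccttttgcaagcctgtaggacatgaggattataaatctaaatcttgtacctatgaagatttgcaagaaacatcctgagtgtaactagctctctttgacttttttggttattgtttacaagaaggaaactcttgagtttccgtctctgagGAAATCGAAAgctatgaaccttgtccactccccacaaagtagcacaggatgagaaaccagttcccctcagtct
In Ifit1 the matches began 104 and 85 bases before the start. Ifit3 and Ifit3b held a pair each, at 156 and 122 bases in Ifit3 and at 188 and 154 bases in Ifit3b. Isg15 had 3 overlapping matches at 78, 72 and 66 bases, Bst2 a pair of overlapping ones at 130 and 124 bases, Stat2 a single one at 222 bases and Ifi213 a single one at 73 bases. The promoters of Irf9 and Ifi35, which also passed the test, held no match in the 300 bases.

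Across the 4 groups most members had their lowest mean in HFHS hearts with ertugliflozin. The HFHS ertugliflozin mean was the lowest of the 4 group means for 38 of 41 members and the highest for 0, where 24.8% and 22.7% of all tested genes had their lowest and highest mean in that group. HFHS untreated had the highest mean for 22 members, CD ertugliflozin for 16 and CD untreated for 3, against 24.6%, 28.5% and 24.1% of all tested genes. The mean log2 CPM over the 41 members was 3.46 ± 0.11 in HFHS ertugliflozin, 3.85 ± 0.248 in HFHS untreated, 3.85 ± 0.106 in CD ertugliflozin and 3.74 ± 0.185 in CD untreated (SD, n = 4 each). By library the HFHS ertugliflozin range of 3.303 to 3.558 overlapped HFHS untreated (3.538 to 4.072) and CD untreated (3.514 to 3.968). It lay below CD ertugliflozin (3.704 to 3.934). In bulk tissue, fewer cells of a type and less RNA per cell cannot be told apart.

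**Figure D1:**
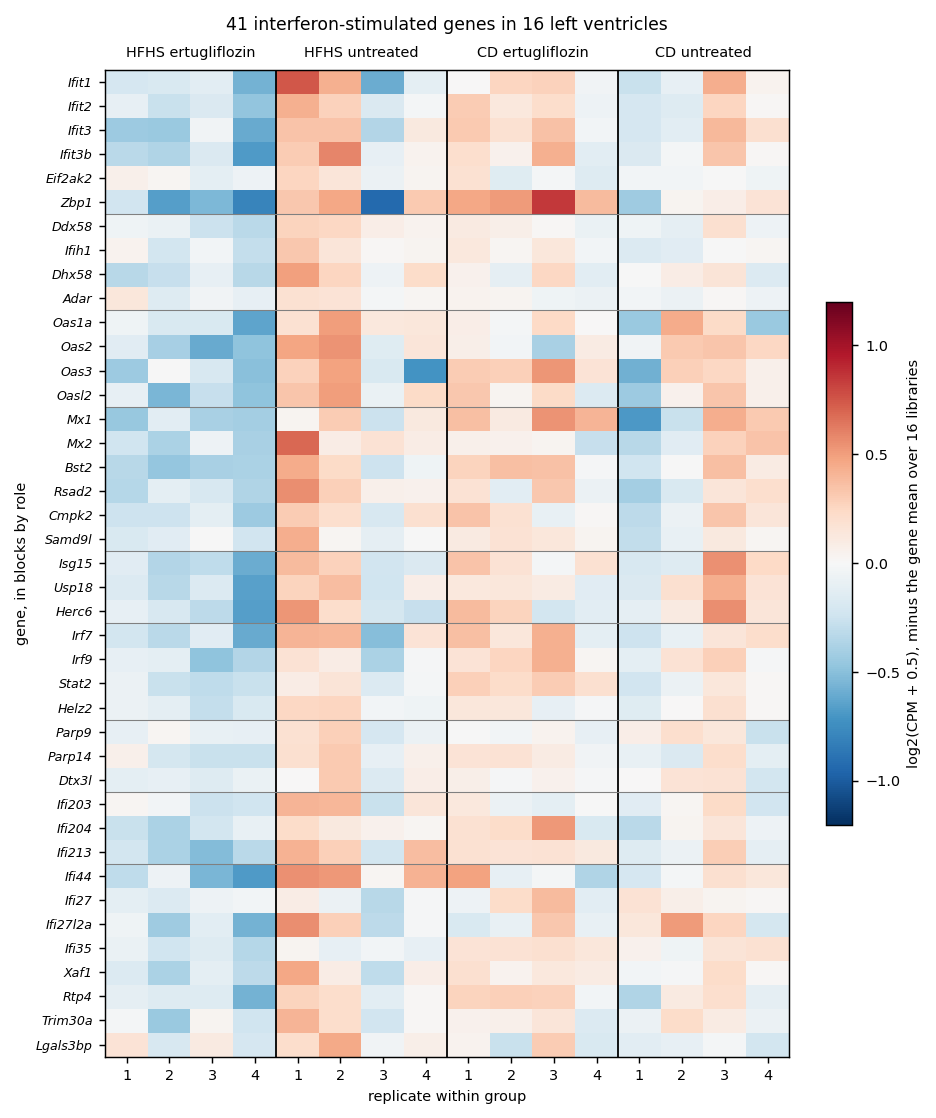
Level of each of the 41 members in each of the 16 libraries, as log2(CPM + 0.5) minus the member's mean over the 16 libraries. Rows are members grouped by role and columns are libraries in group order. The 4 HFHS ertugliflozin columns are the lowest block, and HFHS untreated replicate 3 is the low column of its group.

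Libraries of 1 group differed in the members together. Among HFHS untreated libraries, replicate 1 held the highest CPM for 26 members and replicate 2 for 15, while replicate 3 held the lowest for 33. For comparison, those libraries were highest for 32.1% and 22.4% and lowest (replicate 3) for 24.7% of all genes. In CD untreated, replicate 3 was highest for 29 members and replicate 1 lowest for 29, against 22.8% and 23.5% of all genes. In CD ertugliflozin replicate 4 was lowest for 28, against 25% of all genes. In HFHS ertugliflozin replicate 4 was lowest for 24, against 22.9% of all genes. Over all 16 libraries, the lowest value belonged to an HFHS ertugliflozin library for 29 members, 18 of them in replicate 4, and the highest to HFHS untreated replicate 1 for 17. The shares of all genes over the 16 libraries were not counted. The members' SD on the log2 scale had a median of 0.162 in HFHS ertugliflozin, 0.25 in HFHS untreated, 0.171 in CD ertugliflozin and 0.211 in CD untreated, against 0.111, 0.145, 0.136 and 0.127 over all genes in the same order of groups.

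The effect of ertugliflozin on the HFHS diet was measured first. All 41 members had a negative log2 fold change, from -0.91 (Zbp1) to -0.02 (Ifi27), with a median of -0.41 against 0.000508 over all genes, of which 50.2% were above 0. With limma-voom, and without HFHS untreated replicate 1, 40 were below 0 and 1 above. No member passed the threshold (edgeR quasi-likelihood test, Benjamini-Hochberg adjusted p under 0.05), and 0% of all genes did. The smallest adjusted p of a member was 0.653. At an unadjusted p under 0.05 there were 31 of 41 members, against 4.02% of all genes. That number was 25 with limma-voom and 21 without HFHS ertugliflozin replicate 4. It was 23 without HFHS untreated replicate 1 or 2 and 37 without HFHS untreated replicate 3. In these fits 2.91% to 6.4% of all genes had such a p. DESeq2 and limma-voom also called 0 members. For 11 members all 4 HFHS ertugliflozin libraries lay below all 4 HFHS untreated libraries, where 1.54% of all genes did: Bst2, Ddx58, Dhx58, Helz2, Ifi204, Ifi44, Ifit3b, Mx2, Oas1a, Oasl2 and Rsad2. No member lay above throughout, against 1.31% of all genes.

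The effect of the HFHS diet among ertugliflozin-treated mice came next, and here members passed the test. Zbp1, Bst2, Irf9, Stat2, Ifi213 and Ifi35 fell, and 0 members rose. That is 14.6% of members, against 1.53% of all genes called lower, 2.15% called higher and 3.69% called in either direction by edgeR at an adjusted p under 0.05. Log2 fold changes were negative for 40 of 41 members, with a median of -0.38 against -0.01 over all genes, and Eif2ak2 stood at 0.01. All 41 were below 0 under upper-quartile scaling and with limma-voom. At an unadjusted p under 0.05 there were 29 members, against 18.5% of all genes. Without HFHS ertugliflozin replicate 4 there were 21, against 17.1% of all genes. In a fit restricted to those groups there were 31, against 20.2%. For 21 members all 4 HFHS ertugliflozin libraries lay below all 4 CD ertugliflozin libraries, where 6.38% of all genes did. No member lay above throughout, against 6.79% of all genes. The count of 6 was 3 without CD ertugliflozin replicate 3 and 3 without HFHS ertugliflozin replicate 2. All genes called were 359 and 303 in those 2 fits, against 584 with all libraries.

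On the control diet ertugliflozin gave 30 members above 0 and 11 below, with a median log2 fold change of 0.08 against 0.00411 over all genes. The number below 0 was 18 without CD untreated replicate 1, 6 without CD untreated replicate 3 and 7 without CD ertugliflozin replicate 4. No member passed the edgeR threshold, which 0.0189% of all genes did, and 2 members had an unadjusted p under 0.05, against 6.17% of all genes. Such a p was seen for 7 members without CD untreated replicate 3, against 4.14% of all genes. Without CD ertugliflozin replicate 3 it was seen for 1, against 6.21%. DESeq2 and limma-voom called 0 members. Stat2 and Zbp1 were higher in every CD ertugliflozin library than in every CD untreated library, where 1.78% of all genes were, and no member was lower throughout, against 1.29% of all genes. The HFHS diet without drug gave 33 members above 0 and 8 below, with a median of 0.13 against -0.00179 over all genes. The number below 0 was 15 with limma-voom, 15, 13, 4 and 4 without HFHS untreated replicate 1, 2, 3 or 4, and 14 and 4 without CD untreated replicate 1 or 3. Again 0 members were called, by edgeR, DESeq2 or limma-voom, against 2.06% of all genes by edgeR (1.45% higher and 0.619% lower). An unadjusted p under 0.05 was seen for 3 members, against 16.5% of all genes. Without HFHS untreated replicate 3 it was seen for 15, against 14.7% of all genes, and without CD untreated replicate 1 for 0, against 15%. No member separated HFHS untreated from CD untreated libraries in either direction, while 4.11% of all genes lay above and 4.22% below.

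The drug-by-diet interaction sets the drug effect on HFHS against the drug effect on CD. It was below 0 for all 41 members, from -1.61 (Zbp1) to -0.06 (Parp9), with a median of -0.49 against -0.0039 over all genes. With limma-voom, and without HFHS untreated replicate 2, CD ertugliflozin replicate 3 or CD untreated replicate 4, 40 were below 0 and 1 above. No member passed the edgeR threshold, which 0.0189% of all genes did, and 25 members had an unadjusted p under 0.05, against 4.27% of all genes. Without HFHS untreated replicate 1 or 2 there were 21 with such a p, and without HFHS untreated replicate 3 there were 32. In these fits 3.96% to 4.69% of all genes had such a p. DESeq2 called 1 member, Stat2, at an adjusted p of 0.0273 (its adjusted p was 0.0273 to 0.382 over the alternatives other than leaving out a library), and limma-voom called 0. Over all genes DESeq2 called 19 and limma-voom 3, against 3 by edgeR. Without HFHS untreated replicate 3, edgeR called 3 members, Zbp1 at an adjusted p of 0.0127, Stat2 at 0.0485 and Ifi213 at 0.0493. Without that library edgeR called 18 of all genes, against 3 with all 16 libraries. The comparisons share libraries: both that involve HFHS ertugliflozin use the same 4, and the interaction uses all 16, so their values for a member are not independent.

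**Figure D2:**
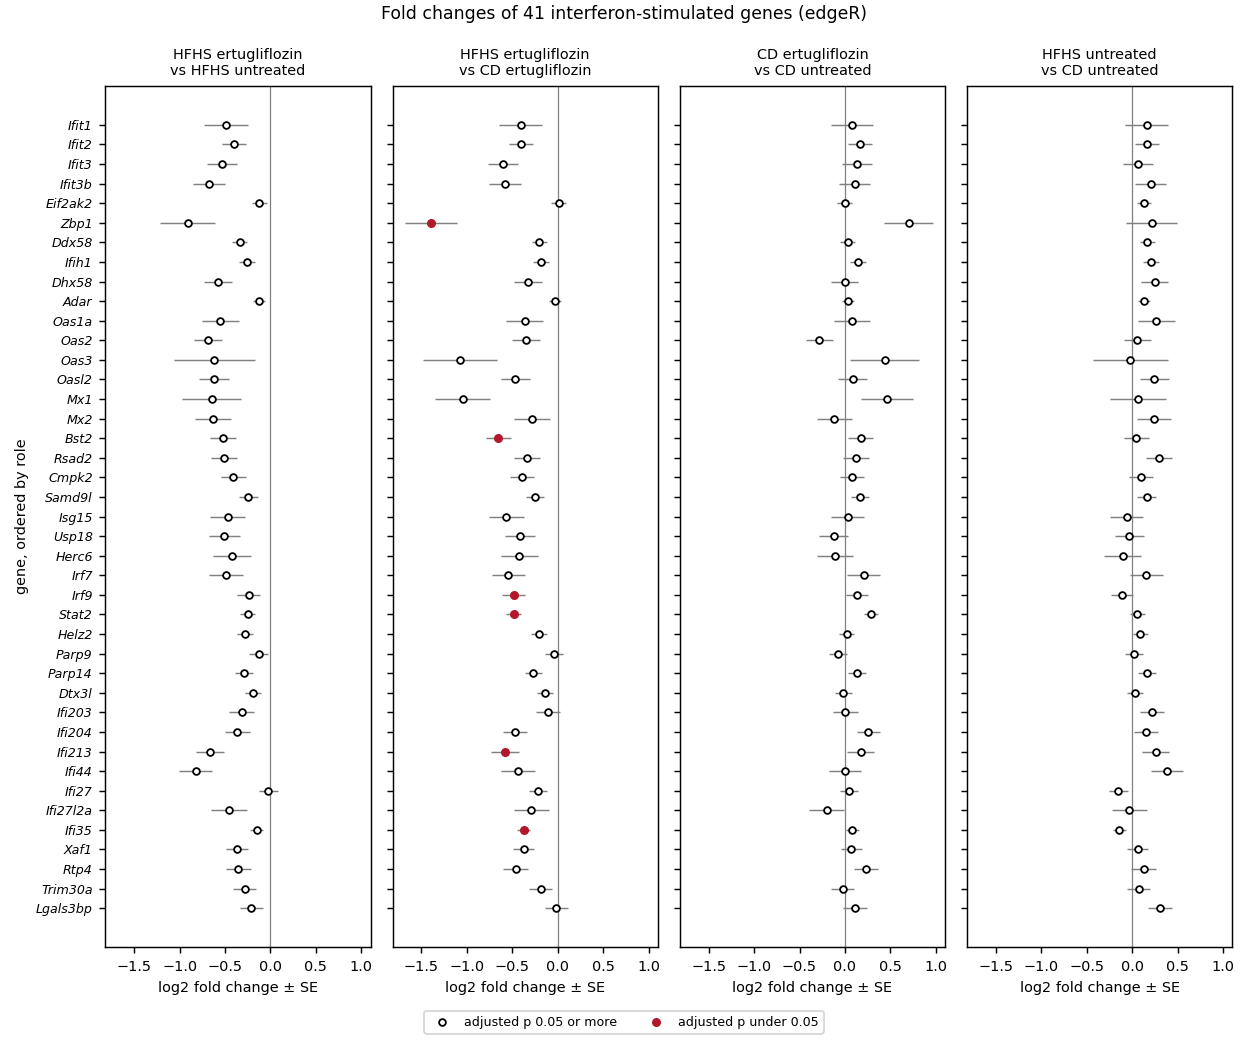
Log2 fold changes of the 41 members with bars of 1 SE, in 4 panels: the drug on HFHS, the diet with drug, the drug on CD and the diet without drug. Filled points have an edgeR adjusted p under 0.05. The HFHS ertugliflozin values lie left of 0 for every member against HFHS untreated and for 40 of 41 against CD ertugliflozin, and the 6 filled points are all in the panel of the diet with drug.

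**Figure D3:**
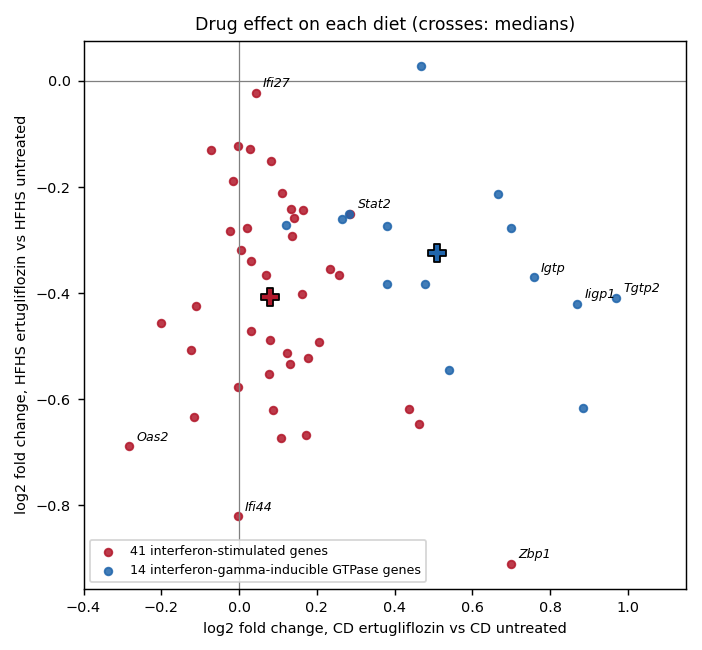
Drug effect on the CD diet (x axis, log2) against drug effect on the HFHS diet (y axis, log2), 1 point per member, with 14 interferon-gamma-inducible GTPases in a second colour and crosses at the medians of both lists. All 41 members lie below 0 on the y axis and 30 lie above 0 on the x axis.

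Transcription factors of the response included the member with the smallest adjusted p, Stat2. Stat2 (ENSMUSG00000040033, chromosome 10, 128270559 to 128292849, plus strand) is the subunit that brings an activation domain to the interferon complex. Stat2 had 25.4, 22.2, 21.6 and 22.2 CPM in the HFHS ertugliflozin libraries and 28.5, 29.9, 23.9 and 26.4 CPM in the HFHS untreated libraries, against 32.8, 31.3, 33.2 and 30.6 CPM in CD ertugliflozin and 22.7, 25.4, 29.6 and 27.1 CPM in CD untreated. Every HFHS ertugliflozin library lay below every CD ertugliflozin library, and every CD ertugliflozin library above every CD untreated library. The diet effect with drug was -0.48 ± 0.08 (log2, SE; edgeR adjusted p = 0.00243), the drug effect -0.25 ± 0.08 on HFHS (adjusted p = 0.9999) and 0.29 ± 0.08 on CD (adjusted p = 0.6798).

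Irf9 (ENSMUSG00000002325, chromosome 14, 55603571 to 55610030, plus strand) is the DNA-binding partner of Stat2. Irf9 had 21.8, 21.5, 16.6 and 18.3 CPM in the HFHS ertugliflozin libraries and 26.5, 24.97, 17.9 and 23.2 CPM in the HFHS untreated libraries, against 26.4, 28.1, 31.6 and 23.8 CPM in CD ertugliflozin and 21.6, 26.6, 28.7 and 23.2 CPM in CD untreated. HFHS ertugliflozin lay below CD ertugliflozin throughout and overlapped HFHS untreated. The fall against CD ertugliflozin was -0.49 ± 0.12 (edgeR adjusted p = 0.0372). It missed the threshold without HFHS ertugliflozin replicate 1, 2, 3 or 4, or without CD ertugliflozin replicate 1, 2 or 3 (adjusted p of 0.052 to 0.115), and with no filter on low counts (adjusted p = 0.0867). Over the alternatives other than leaving out a library the adjusted p ran from 0.00616 to 0.0867. Irf7, which drives the interferon alpha genes themselves, averaged 13.9 ± 1.96 CPM in HFHS ertugliflozin, 19.5 ± 5.25 in HFHS untreated, 20.3 ± 3.43 in CD ertugliflozin and 17.6 ± 2.602 in CD untreated. Its diet effect with drug of -0.54 ± 0.18 missed the threshold (edgeR adjusted p = 0.124), although the groups did not overlap. Helz2 encodes a helicase described as a nuclear receptor coactivator. Helz2 had 48.6, 47.2, 41.9 and 45.1 CPM in the HFHS ertugliflozin libraries and 60.9, 61.3, 49.97 and 49.5 CPM in the HFHS untreated libraries, against 56.5, 56.4, 47.8 and 50.6 CPM in CD ertugliflozin and 46.3, 51.5, 58.7 and 51.7 CPM in CD untreated. Its HFHS ertugliflozin libraries lay below the HFHS untreated ones, and the drug effect on HFHS was -0.28 ± 0.09 (edgeR adjusted p = 0.9999).

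RNA sensors are the cytoplasmic helicases that start interferon production. Ddx58, which encodes RIG-I, had the smallest p of this class. Ddx58 had 23.3, 22.9, 20.2 and 19.3 CPM in the HFHS ertugliflozin libraries and 29.1, 28.8, 25.5 and 25 CPM in the HFHS untreated libraries, against 26.03, 25.4, 24.4 and 22.9 CPM in CD ertugliflozin and 23.3, 22.4, 27.7 and 23.2 CPM in CD untreated. All 4 HFHS ertugliflozin libraries lay below the HFHS untreated libraries, with a log2 fold change of -0.34 ± 0.08 (edgeR adjusted p = 0.755), and they overlapped CD ertugliflozin. Ifih1, the sensor MDA5, had a drug effect on HFHS of -0.26 ± 0.09, and Dhx58, the regulatory helicase LGP2, one of -0.58 ± 0.15. On CD the drug effects were 0.03 for Ddx58, 0.14 for Ifih1 and -0.00357 for Dhx58. Adar, which edits adenosine to inosine in double-stranded RNA, had -0.13 ± 0.07 for the drug on HFHS. Its counts are uncertain, since 13.1% of its 75-base stretches also occur in Chrnb2 on the opposite strand. None of these 4 genes passed the test in any comparison.

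Genes that capture viral RNA or stop its translation included the Ifit family, the kinase gene Eif2ak2 (PKR) and Zbp1, a sensor of left-handed nucleic acids that can trigger cell death. Zbp1 (ENSMUSG00000027514, chromosome 2, 173206612 to 173218923, minus strand) showed the largest log2 fold changes of the 41 in the drug effect on HFHS, the diet effect with drug and the interaction, at a low level. Zbp1 had 1.45, 0.956, 1.08 and 0.822 CPM in the HFHS ertugliflozin libraries and 2.37, 2.67, 0.702 and 2.36 CPM in the HFHS untreated libraries, against 2.66, 2.77, 3.65 and 2.48 CPM in CD ertugliflozin and 1.21, 1.85, 1.93 and 2.07 CPM in CD untreated. HFHS ertugliflozin lay below CD ertugliflozin throughout, with a fall of -1.40 ± 0.29 (log2, SE; edgeR adjusted p = 0.01004). It overlapped HFHS untreated through replicate 3 of that group, and the drug effect on HFHS was -0.91 ± 0.30 (edgeR adjusted p = 0.9999). On CD the drug effect was 0.70 ± 0.27 with groups that did not overlap (edgeR adjusted p = 0.762).

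The 4 Ifit genes encode proteins that bind foreign RNA, Ifit1 at ends that lack the host's cap marks. Their drug effects on HFHS were -0.49 ± 0.24 for Ifit1, -0.40 ± 0.13 for Ifit2, -0.53 ± 0.17 for Ifit3 and -0.67 ± 0.18 for Ifit3b. Their diet effects with drug were -0.41, -0.40, -0.60 and -0.58 in the same order of genes, and for all 4 the HFHS ertugliflozin libraries lay below the CD ertugliflozin libraries. None passed the test, and Ifit3 came nearest (edgeR adjusted p = 0.0582). Ifit3 averaged 11.1 ± 2.01 CPM in HFHS ertugliflozin, 16.05 ± 3.42 in HFHS untreated, 16.9 ± 2.02 in CD ertugliflozin and 15.4 ± 3.05 in CD untreated. Ifit3 and Ifit3b are near copies: 41.1% of the 75-base stretches of Ifit3 occur in Ifit3b, so reads could be split between them. Eif2ak2 had 24.2 ± 1.38 CPM in HFHS ertugliflozin, 26.3 ± 2.62 in HFHS untreated, 24.02 ± 2.74 in CD ertugliflozin and 24.1 ± 0.331 in CD untreated.

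Oligoadenylate synthetases make the short adenylate chains that activate the RNA-cutting enzyme RNase L. Oas2 had the smallest p of the class. Oas2 had 17.4, 14.4, 12.5 and 13.6 CPM in the HFHS ertugliflozin libraries and 26.8, 28.1, 17.3 and 21.3 CPM in the HFHS untreated libraries, against 20.1, 18.7, 14.5 and 20.6 CPM in CD ertugliflozin and 18.6, 24.05, 24.4 and 22.9 CPM in CD untreated. HFHS ertugliflozin held 3 of the 4 lowest HFHS values, and its replicate 1 lay just above HFHS untreated replicate 3. Its drug effect was -0.69 ± 0.15 on HFHS (edgeR adjusted p = 0.653) and -0.28 ± 0.15 on CD (edgeR adjusted p = 0.835), both negative. Oasl2, an oligoadenylate synthetase-like gene, had -0.62 ± 0.16 on HFHS with groups that did not overlap, and Oas1a had -0.55 ± 0.21, also without overlap. For Oas1a, 47.6% of its 75-base stretches occur in Oas1g, so its counts are uncertain. Oas3 averaged 0.431 ± 0.1496 CPM in HFHS ertugliflozin, 0.649 ± 0.392 in HFHS untreated, 0.9096 ± 0.155 in CD ertugliflozin and 0.657 ± 0.283 in CD untreated, the lowest level in the set. None of the 4 passed the test in any comparison.

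Membrane and GTPase restriction factors were led by Bst2 (ENSMUSG00000046718, chromosome 8, 71534255 to 71537456, minus strand), which encodes tetherin, a protein that holds budding virus at the cell surface. Bst2 had 16.6, 15.2, 15.96 and 16.1 CPM in the HFHS ertugliflozin libraries and 28.8, 24.8, 17.7 and 20.3 CPM in the HFHS untreated libraries, against 25.4, 27.2, 27.02 and 20.8 CPM in CD ertugliflozin and 17.8, 21.05, 27.3 and 22.6 CPM in CD untreated. The HFHS ertugliflozin values lay within 15.2 to 16.6 CPM and below every library of the other 3 groups. The diet effect with drug was -0.65 ± 0.14 (edgeR adjusted p = 0.01602), with an adjusted p of 0.0509 without CD ertugliflozin replicate 3 and 0.0579 without HFHS ertugliflozin replicate 2. Its adjusted p was 0.000399 to 0.0475 over the alternatives other than leaving out a library. The drug effect on HFHS was -0.52 ± 0.14 (edgeR adjusted p = 0.9999). Rsad2, which encodes viperin, averaged 30.9 ± 2.58 CPM in HFHS ertugliflozin and 44.1 ± 7.62 in HFHS untreated without overlap, and its neighbour Cmpk2, a mitochondrial nucleotide kinase, 15.1 ± 1.4 and 19.97 ± 2.898 CPM in the same groups. Mx1 and Mx2, dynamin-like antiviral GTPases, had drug effects on HFHS of -0.65 ± 0.32 and -0.63 ± 0.20, and Samd9l, a growth-restricting antiviral gene, one of -0.24 ± 0.10.

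The ISG15 system comprises Isg15, a ubiquitin-like protein that is attached to other proteins, Herc6, its ligase in mouse, and Usp18, which removes it and dampens receptor signalling. Usp18 had 4.18, 3.65, 4.16 and 2.82 CPM in the HFHS ertugliflozin libraries and 5.802, 6.24, 3.93 and 5.03 CPM in the HFHS untreated libraries, against 5.22, 5.26, 5.09 and 4.25 CPM in CD ertugliflozin and 4.12, 5.45, 6.56 and 5.36 CPM in CD untreated. Every HFHS ertugliflozin library lay below every CD ertugliflozin library, and the drug effect on HFHS was -0.51 ± 0.17 (edgeR adjusted p = 0.9999). Isg15 had -0.47 ± 0.19 and Herc6 -0.43 ± 0.21 for the drug on HFHS. These 3 genes were below 0 in the diet effect without drug, at -0.06 for Isg15, -0.03 for Usp18 and -0.10 for Herc6, where 33 of the 41 members were above 0. That was not particular to them: Oas3, Irf9, Ifi27, Ifi27l2a and Ifi35 were below 0 too, with -0.15 for Ifi27 and -0.14 for Ifi35. None of the 3 was called in any comparison.

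Parp14 and Parp9, ADP-ribosyltransferase family genes, and Dtx3l, the ubiquitin ligase that pairs with Parp9, were abundant members. Parp14 had 59.5, 49.2, 47.6 and 47.5 CPM in the HFHS ertugliflozin libraries and 65.3, 71.3, 53.3 and 59.6 CPM in the HFHS untreated libraries, against 64.1, 64.7, 61.2 and 55.6 CPM in CD ertugliflozin and 53.8, 50.6, 66.3 and 52.6 CPM in CD untreated. The HFHS ertugliflozin range overlapped each other group through replicate 1, and the drug effect on HFHS was -0.29 ± 0.10 (edgeR adjusted p = 0.9999). The overlapping neighbours Parp9 and Dtx3l had drug effects on HFHS of -0.13 ± 0.10 and -0.19 ± 0.09, and interactions of -0.06 ± 0.14 and -0.17 ± 0.13. Of the 75-base stretches of Dtx3l, 6.03% also occur in Parp9 on the other strand. None of the 3 was called.

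PYHIN genes encode sensors of DNA. Ifi213 (ENSMUSG00000073491, chromosome 1, 173566283 to 173599274, minus strand) passed the test. Ifi213 had 3.38, 2.98, 2.65 and 3.11 CPM in the HFHS ertugliflozin libraries and 5.54, 5.01, 3.37 and 5.33 CPM in the HFHS untreated libraries, against 4.64, 4.55, 4.61 and 4.398 CPM in CD ertugliflozin and 3.55, 3.82, 5.05 and 3.68 CPM in CD untreated. HFHS ertugliflozin lay below CD ertugliflozin throughout, with -0.58 ± 0.15 (edgeR adjusted p = 0.0401), and its highest library met the lowest HFHS untreated library, replicate 3, at almost the same level. The call is at the edge of the threshold: leaving out any 1 of the 8 libraries of HFHS ertugliflozin and CD ertugliflozin gave an adjusted p of 0.0615 to 0.118, and other alternatives 0.0195 to 0.059. The drug effect on HFHS was -0.67 ± 0.15 (edgeR adjusted p = 0.653). Ifi203 had the highest mean CPM of the 41 members. Ifi203 had 63.3, 60.9, 52.1 and 52.7 CPM in the HFHS ertugliflozin libraries and 82.9, 81.99, 51.6 and 68.9 CPM in the HFHS untreated libraries, against 68.1, 59.4, 57.3 and 61.9 CPM in CD ertugliflozin and 56.6, 63.2, 72.98 and 52.9 CPM in CD untreated. HFHS untreated replicates 1 and 2 were the high libraries, replicate 3 was the lowest of all 16, and the drug effect on HFHS was -0.32 ± 0.13 (edgeR adjusted p = 0.9999). Ifi204 had -0.37 ± 0.13 on HFHS and -0.47 ± 0.13 for diet with drug (edgeR adjusted p = 0.0537). Some stretches of these genes recur in relatives, 8.07% in Ifi213, 5.71% in Ifi203 and 13.2% in Ifi204.

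Among the other members, Ifi35 (ENSMUSG00000010358, chromosome 11, 101448407 to 101458698, plus strand), a leucine-zipper protein induced by interferon, passed the test. Ifi35 had 16.5, 14.8, 15.7 and 13.7 CPM in the HFHS ertugliflozin libraries and 17.9, 16.3, 17.1 and 16.3 CPM in the HFHS untreated libraries, against 19.7, 19.8, 20.1 and 19.3 CPM in CD ertugliflozin and 18.2, 16.9, 19.5 and 19.9 CPM in CD untreated. The CD ertugliflozin libraries spanned 19.3 to 20.1 CPM, above all HFHS ertugliflozin libraries, and the diet effect with drug was -0.38 ± 0.07 (edgeR adjusted p = 0.00553). HFHS untreated stood at -0.14 against CD untreated (edgeR adjusted p = 0.327), and the drug effect on HFHS was -0.15 ± 0.07. Of its 75-base stretches 7.42% occur in Gm11626 on the opposite strand. Ifi44, induced by interferon and of less settled function, had 6.04 ± 1.26 CPM in HFHS ertugliflozin and 10.7 ± 1.74 CPM in HFHS untreated without overlap, with -0.82 ± 0.18 (edgeR adjusted p = 0.653). Xaf1, which binds the apoptosis inhibitor XIAP, had -0.36 ± 0.12 for the drug on HFHS, Rtp4, a receptor transporter gene, -0.35 ± 0.14, and Trim30a, a brake on Toll-like receptor signalling, -0.28 ± 0.13. The counts of Rtp4 are uncertain, since 10.5% of its 75-base stretches occur in Gm45338 on the same strand. Lgals3bp, a secreted galectin-binding protein, had -0.21 ± 0.13. The neighbours Ifi27 and Ifi27l2a differed in size, with -0.02 ± 0.10 for Ifi27 and -0.46 ± 0.20 for Ifi27l2a, and that difference between genes was not tested.

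**Figure D4:**
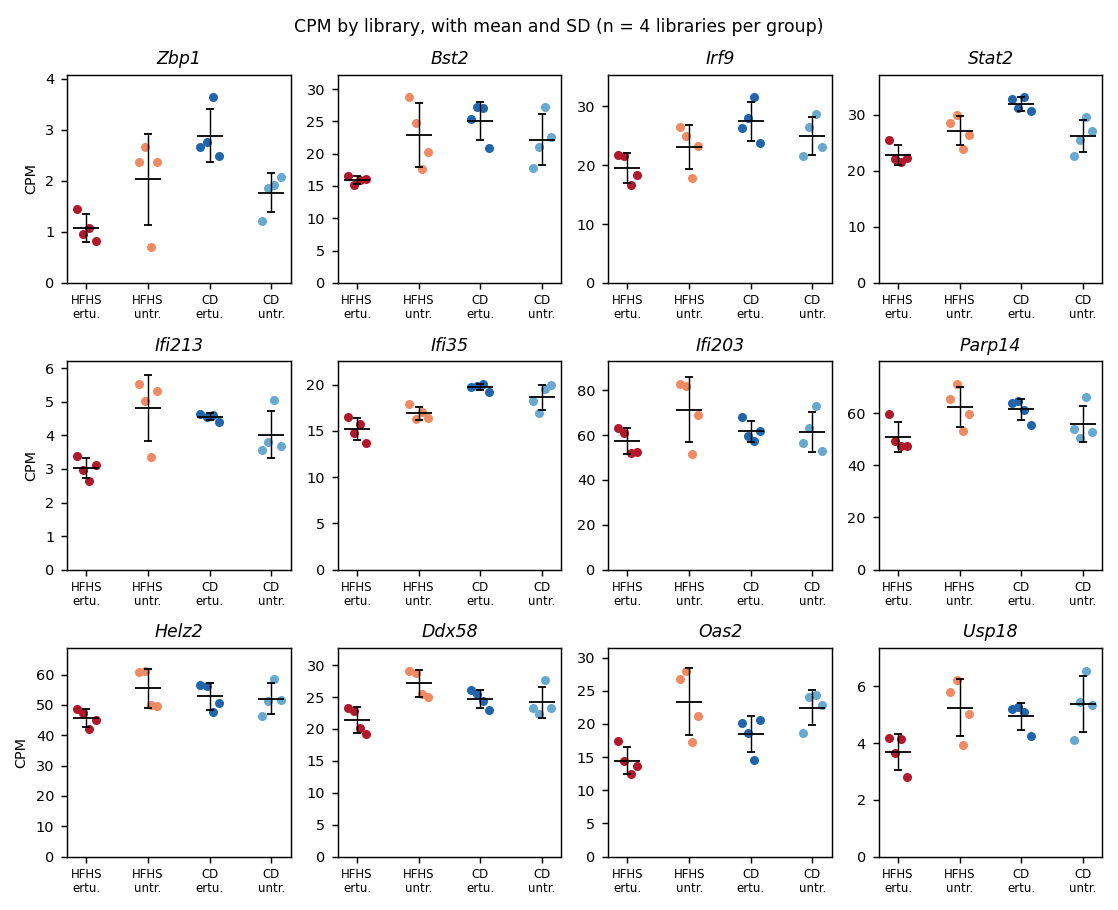
CPM of 12 members in each library (points), with the group mean and SD (bars), 1 panel per member, each y axis starting at 0, with ertugliflozin shortened to ertu. and untreated to untr. on the x axis. The HFHS ertugliflozin points of Zbp1, Bst2, Irf9, Stat2, Ifi213, Ifi35 and Usp18 all lie below the CD ertugliflozin points, and HFHS untreated replicate 3 is the low point of its group for Zbp1 at 0.702 CPM.

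Levels compared between genes are per kilobase of annotated exon. On that scale Ifi27l2a had the highest mean over the 16 libraries, at 32.96 CPM per kb, followed by Bst2 at 23.8, Ifi27 at 19.9, Lgals3bp at 17.2 and Ifi35 at 10.2. At the low end were Ifi213 at 0.6001, Zbp1 at 0.549, Mx1 at 0.284 and Oas3 at 0.0936 CPM per kb. Called members were found at both ends, with Bst2 and Ifi35 among the highest and Ifi213 and Zbp1 among the lowest.

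The genes upstream of the members were counted from separate lists. Irf1, a factor induced by both interferon types, fell to 27.9 ± 3.11 CPM in HFHS ertugliflozin, against 38.1 ± 5.17 CPM in CD ertugliflozin (-0.45 ± 0.10, edgeR adjusted p = 0.0177). In that comparison 1.53% of all genes were called lower. Irf1 is given as a single gene, and the counts of the receptor and signalling list are not reported here. Of 14 genes of nucleic acid sensing, 13 were tested and 1 fell in that comparison, Samhd1, a nucleotide-cleaving restriction factor (-0.21 ± 0.05, edgeR adjusted p = 0.0294), where 1.53% of all genes were called lower. None of the 13 was called in the other comparisons, and their median for the drug on HFHS was -0.10, against -0.41 for the members. The receptor genes Ifnar1 and Ifnar2 had log2 fold changes of -0.06 ± 0.07 and -0.08 ± 0.05 for the drug on HFHS and of -0.01 ± 0.07 and -0.03 ± 0.05 for the diet with drug, and neither was called. Interferon genes themselves were hardly seen: of 21 listed, 18 had 0 counts in all 16 libraries, and the rest had 9 counts together, 7 of them from Ifng. A floor of 3 counts corresponds to 0.14 to 0.205 CPM per library, which covers counting error only, so interferon transcripts were not detectable at this depth rather than shown to be absent.

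The interferon-gamma-inducible GTPases, cell-autonomous defence genes that both interferon types can raise, were counted as a neighbouring list. Of 14 genes, 3 rose with the drug on CD (median log2 fold change 0.51) and 0 members of the type I set did (median 0.08). These 3 were all the genes called higher in that comparison (0.0189% of those tested), so that share is no separate background. Both lists were chosen with earlier results of these data known. In the diet effect with drug, 13 of the 14 fell (median -0.96), against 6 of the 41 (median -0.38) and 1.53% of all genes called lower. For the drug on HFHS the medians were -0.32 for the GTPases and -0.41 for the type I set, with 0 called in each list. The drug-by-diet interaction was below 0 for all 14 GTPases (median -0.87) and for all 41 of the type I set (median -0.49). It was called lower for 3 GTPases and 0 of the type I set, and those 3 were all the genes called (0.0189%). Iigp1 averaged 32.8 ± 3.71 CPM in HFHS ertugliflozin, 43.96 ± 6.55 in HFHS untreated, 90.5 ± 14.6 in CD ertugliflozin and 49.6 ± 4.6 in CD untreated, so that its high group was CD ertugliflozin. The difference between the lists was not tested.

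Markers of immune and vascular cells were summed per library beside these results. The 15 macrophage markers summed to 424 to 508 CPM in HFHS ertugliflozin, 472 to 549 in HFHS untreated, 488 to 687 in CD ertugliflozin and 468 to 636 in CD untreated. For the drug on HFHS 14 of the 15 were below 0 (median -0.16), and for the diet with drug 14 of 15 (median -0.37), with 0 called. Erythroid markers summed to 250 to 337 CPM in HFHS ertugliflozin, 318 to 495 in HFHS untreated, 319 to 406 in CD ertugliflozin and 255 to 433 in CD untreated. All 7 tested were below 0 in both comparisons (medians -0.41 and -0.35), with 0 called. For the drug on HFHS 6 of 7 erythroid and 3 of 15 macrophage markers had an unadjusted edgeR p under 0.05, against 4.02% of all genes. For the diet with drug they were 2 of 7 and 6 of 15, against 18.5% of all genes. Endothelial markers summed to 1667 to 1927, 1765 to 2022, 1577 to 1735 and 1553 to 1668 CPM in the same order of groups. For the drug on HFHS 9 of 9 were below 0 (median -0.12), 3 of them with an unadjusted edgeR p under 0.05. For the diet with drug 6 of 9 were above 0 (median 0.05), and 2 of 9 had such a p. In both comparisons 0 were called. The 8 fibroblast markers summed to 1624 to 1819 CPM in HFHS ertugliflozin, 1396 to 1868 in HFHS untreated, 1248 to 1712 in CD ertugliflozin and 1327 to 2089 in CD untreated. They split evenly around 0 for the drug on HFHS (median -0.01), and for the diet with drug 6 of 8 were above 0 (median 0.32) and Pdgfra rose (edgeR adjusted p = 0.0414), against 2.15% of all genes called higher. Of the 8 ventricular muscle markers, 5 fell in the diet effect with drug (median -0.19), against 1.53% of all genes called lower, and 0 were called for the drug on HFHS. Atrial markers were below 0 for 4 of 6 tested with the drug on HFHS (median -0.40) and for 6 of 6 with the diet and drug (median -0.89), valve and cartilage markers were above 0 for 6 of 6 (median 0.98) and 3 of 6 (median -0.08), and B cell markers for 4 of 6 in each (medians 0.02 and 0.22), with 0 called. T and NK cell markers summed to at most 5.58 CPM in any library and neutrophil markers to at most 2.90 CPM with Ly6g at 0 throughout. The 6 plasmacytoid dendritic cell markers summed to 206 to 228 CPM in HFHS ertugliflozin, 220 to 287 in HFHS untreated, 188 to 210 in CD ertugliflozin and 193 to 218 in CD untreated. The highest sum was in HFHS untreated replicate 1, the library with the highest sum over the members too. Most of that sum was Tcf4, which other cell types also express, at a mean of 207 CPM, while Siglech averaged 0.361 CPM, Ccr9 0.0598 CPM and Klk1 had 1 count in all. The 3 tested markers were below 0 for the drug on HFHS (median -0.23), and 2 of the 3 were above 0 for the diet with drug (median 0.13), with 0 called. The part of any cell type in the members' differences was not tested.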

How the data were processed

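Left ventricular poly(A) RNA of 16 mice was sequenced as strand-marked libraries, per the labels' protocols. The authors deposited whole read counts per Ensembl gene, not normalized, and a table of regularized log2 values that was used only as an alternative input. Per the submitters' processing notes reads went to mm10 and the tools named are DESeq2 1.22.1, FastQC 0.11.7, featureCounts, STAR 2.6.0c and Subread 1.6.2. Not given in the sources used here are the annotation, the strand setting and the rule for reads with several hits. Symbols and coordinates came from GENCODE M21 (GRCm38), which matched 53669 of 53764 IDs, and promoters from RefSeq (GRCm38.p6).

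Counts were analysed with edgeR 4.0.16 in R 4.3.3: filterByExpr, TMM factors, 1 mean per group over all 16 libraries, robust quasi-likelihood fits, and Benjamini-Hochberg adjustment over 15841 genes at a threshold of 0.05. SE was taken as the size of the log2 fold change over the root of F. CPM are counts scaled to a common library size by library total and TMM factor, and mean log2 CPM used a prior count of 2. The tests were tried on simulated data. No 2 libraries of a group were alike within sampling noise (chi-square over degrees of freedom, 3.23 to 16.3), and each counted as 1 replicate. Replicate numbers name animals, and the main fit did not pair them.

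As alternatives, scaling was changed to RLE or upper quartile, and the filter was dropped or set to 1 CPM in 4 libraries; further ones were DESeq2 1.42.0, limma 3.58.1 (voom, sample weights), limma on the authors' log2 values, a replicate block, a fit restricted to the groups compared, and omission of each library in turn. The members and the other lists were chosen with earlier results of these data known. Values in every library are given for members past the threshold in a comparison, the 3 of smallest interaction p, the 3 of highest mean CPM, and the smallest p of each role group left without one. Shared stretches are 75-base windows of annotated transcripts that occur in another gene on either strand. The counts of the receptor and signalling list are not reported here.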

Additional observations from a re-analysis of the deposited data

Results flagged for a closer look

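The 12 members shown library by library gave 48 combinations of gene and group, and in 5 of them 1 library lay far from the other 3. Chance alone gives about 1 such gap in 20 groups. Zbp1 was at 0.7019 CPM in HFHS untreated replicate 3, where the other libraries of that group were at 2.361 to 2.667 CPM. Stat2 was at 25.43 CPM in HFHS ertugliflozin replicate 1, against 21.62 to 22.19 CPM in its group. Parp14 was at 59.5 CPM in the same library, against 47.49 to 49.25 CPM. Ddx58 was at 27.69 CPM in CD untreated replicate 3, against 22.41 to 23.28 CPM. Usp18 was at 4.247 CPM in CD ertugliflozin replicate 4, against 5.093 to 5.259 CPM.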

How the results depend on the processing

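No median over the members changed sign under the alternatives run, while single members near 0 did. Under upper-quartile scaling the genes called for HFHS ertugliflozin against CD ertugliflozin were 290 higher and 302 lower, against 341 higher and 243 lower in the main results. For HFHS ertugliflozin against HFHS untreated the count of called members was 0 under each of them, and the median was -0.156 on the deposited log2 values, which are shrunken, and -0.505 to -0.297 with 1 library left out. All genes called there numbered 0 to 1 with 1 library left out. For HFHS ertugliflozin against CD ertugliflozin the 6 called members became 12 with DESeq2, 12 with limma-voom and 14 in a fit restricted to those groups, and 3 to 9 with 1 library left out. The median was -0.166 on the deposited values. All genes called, 584 in the main fit, were 906 with DESeq2, 845 with limma-voom and 719 in the fit restricted to those groups. With 1 library left out they were 287 to 844. Zbp1, Stat2 and Ifi35 stayed called without any 1 library (adjusted p up to 0.0398, 0.0126 and 0.0239). For CD ertugliflozin against CD untreated all genes called were 3, and 10 with DESeq2, 1 in a fit restricted to those groups and 0 to 6 with 1 library left out. For HFHS untreated against CD untreated they were 327, and 607 with DESeq2, 743 with limma-voom, 136 in a fit restricted to those groups and 133 to 846 with 1 library left out. For the interaction they were 3, and 6 with no filter, 19 with DESeq2 and 0 to 18 with 1 library left out. Its called members were 1 with DESeq2 and 0 to 3 with 1 library left out, and its median was -0.203 on the deposited values. The cause of these shifts was not tested. With the replicate number as a block, called members were 0 in 4 of the comparisons and 6 in HFHS ertugliflozin against CD ertugliflozin, and all genes called there were 550. The block ended the call of Ifi213 (adjusted p = 0.059) and added a call of Rtp4, so the count of 6 does not hold the same members. Deviations of libraries with equal numbers correlated at -0.24 to 0.313 (median 0.056), and those with different numbers at -0.264 to 0.267 (median -0.0226). Of 16 libraries, 7 correlated best with a library of their own number. These values do not decide whether the numbers pair the animals. Zbp1, Mx1 and Oas3, near 1 CPM, rest on few counts.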
